A study of Mus musculus with 6 samples.

Results

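Dppa2, Dppa4 and genes of the two-cell stage were examined in epiblast-like cells (EpiLCs), the formative state that mouse embryonic stem cells enter on the way to germ layers. The set listed 10 genes, Dppa2, Dppa4, Zscan4a to Zscan4f, Zfp352 and Tcstv1, and 9 of them were found among the 55416 genes of the count table. No gene carried the symbol Tcstv1 in the annotation used here (GENCODE M39), in which Tcstv1a and Tcstv1b are separate genes. Dppa2 was chosen by its measured difference between the KO and WT libraries, and the other members were added with earlier results of the same contrast known, so the members' differences are given as a description, with no test.

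RNA-seq counts came from 3 WT and 3 Oct6 KO libraries of 46C mouse embryonic stem cells, a line that carries GFP under the control of Sox1, a gene of neural cells, after 48 h of differentiation in N2B27 with KSR, bFGF and Activin A on fibronectin. The KO cells were a single clone with a homozygous insertion of 1 base in Oct6 (Pou3f1), a POU transcription factor, and the WT cells were the parental line. Genotype and clone therefore cannot be told apart, and p-values measure the spread between the 3 cultures of each line. The cultures were paired by replicate number, but the main fit does not use the pairing. Totals ran from 10995505 to 14680930 counts per library. Pou3f1 RNA itself was at 142 ± 19.4 CPM (counts relative to the scaled library total, the unit of level used throughout; SD, n = 3) in WT and 132 ± 7.59 CPM in KO (log2 fold change −0.10, standard error 0.11), so its RNA level does not tell the genotypes apart. Of 9 markers of formative epiblast, all were tested, 4 (Fgf5, Otx2, Foxd3 and Sox2) were called higher in KO and 0 lower (edgeR, adjusted p below 0.1). Of all 15746 genes tested, 11.8% were called higher and 12.5% lower. The median log2 fold change of the 9 markers was 0.28. Their summed level ran from 3170 to 3530 CPM in WT and from 3220 to 3360 CPM in KO.

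In the mouse embryo, Zscan4, Zfp352, Tcstv, Usp17l and Tdpoz genes are switched on when the zygotic genome is activated, and a small, changing fraction of embryonic stem cells in culture expresses them again. DPPA2 and DPPA4 are DNA-binding proteins with a SAP domain that act as a heterodimer. They are known to open the way to this two-cell-like programme through the homeobox gene Dux, and to keep the promoters of developmental and germline genes free of DNA methylation. In bulk libraries such as these, fewer cells of a type and less RNA per cell cannot be told apart.

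The Zscan4 genes are closely similar copies in a cluster on chromosome 7, and their promoters show how alike they are. The transcripts of Zscan4a, Zscan4c, Zscan4d and Zscan4f are 97.5% to 99.5% identical to one another. Those of Zscan4b and Zscan4e are 89.4% to 90.3% identical to these. RefSeq promoter entries, whose coordinates are those of GRCm38.p6 and not of GRCm39 as for the genes further on, were matched for Zscan4b, Zscan4c, Zscan4d, Zscan4f and Zfp352, and for no other member. The following stretches of 90 bases upstream of the start sites are shown because 4 genes share them almost letter for letter. Each was placed at the best match to Zscan4c. They begin 120 bases before the start of Zscan4c, 131 before that of Zscan4d and 97 before those of Zscan4b and Zscan4f. Capitals mark the bases that differ from Zscan4c.
Zscan4c, chr7:11005625-11005714, + strand: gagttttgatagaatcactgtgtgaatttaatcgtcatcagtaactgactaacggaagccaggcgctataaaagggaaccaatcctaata
Zscan4f, chr7:11397818-11397907, + strand: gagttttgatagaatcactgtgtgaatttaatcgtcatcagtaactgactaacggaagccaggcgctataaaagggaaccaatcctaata
Zscan4d, chr7:11166190-11166279, − strand: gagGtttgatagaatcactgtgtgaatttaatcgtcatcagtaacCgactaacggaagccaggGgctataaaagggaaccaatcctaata
Zscan4b, chr7:10905058-10905147, − strand: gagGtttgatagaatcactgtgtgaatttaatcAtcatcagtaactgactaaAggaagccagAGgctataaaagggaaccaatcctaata

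Zscan4f had 0 differences from Zscan4c over these bases, Zscan4d had 3 and Zscan4b had 5. All 4 stretches held TATAAA, the core of the TATA box, which on either strand occurred in 13.6% of 32851 RefSeq promoters of 300 bases. The octamer ATGCAAAT, the motif that POU factors such as Oct6 bind, was searched on both strands and was in 0 of the 5 member promoters, against 1.74% of all promoters. A missing match says only that these letters are not in this window.

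The likeness extends to the transcripts and limits how single Zscan4 genes can be read. Of all 100-base windows of the Zscan4f transcript, 94.3% occurred in another gene of the annotation, and so did 90.9% for Zscan4a, 80.9% for Zscan4e, 80.3% for Zscan4b and 72.8% for Zscan4c. Of Zscan4a to Zscan4f, Zscan4d shared the least, with 29.6%. How the counting treated reads that match several genes is not given in the sources used here, so the level of a single Zscan4 gene is uncertain. The summed level of the family is given as well, but it does not recover reads that may have been left out for matching several genes. Zfp352 shared 0.643% of its windows with other genes.

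Dppa2 (ENSMUSG00000072419.6, chr16:48124105-48140618 of GRCm39, + strand) was higher in KO than in WT. In WT, replicates 1, 2 and 3 held 63.7, 56.8 and 58.4 CPM, and the KO replicates in the same order held 134, 134 and 124 CPM. The groups did not overlap, and the lowest KO library was above the highest WT library. The means were 59.6 ± 3.64 CPM in WT and 131 ± 5.55 CPM in KO (SD, n = 3), a log2 fold change of 1.13 with a standard error of 0.098. The 3 pairs of replicates gave log2 ratios of 1.07, 1.24 and 1.09.

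Dppa4 (ENSMUSG00000058550.16, chr16:48104062-48114896, + strand), the partner gene that lies just upstream of Dppa2, was higher in KO as well and by less. It was at 148, 159 and 159 CPM in WT and at 249, 271 and 292 CPM in KO, again without overlap of the groups. The means were 155 ± 6.53 and 271 ± 21.1 CPM, which gives a log2 fold change of 0.80 with a standard error of 0.097. Per kilobase of transcript, Dppa4 was the more abundant of the partners, with 86.4 CPM per kb in WT and 151 CPM per kb in KO, against 19.0 and 41.6 CPM per kb for Dppa2. The transcripts of both genes also share windows with pseudogenes, 20.7% of them for Dppa2 and 13.7% for Dppa4. Gm14058 on chromosome 2, the pseudogene that shares most with Dppa4, had 48, 44 and 48 counts in WT and 96, 104 and 102 counts in KO.

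**Figure D1:**
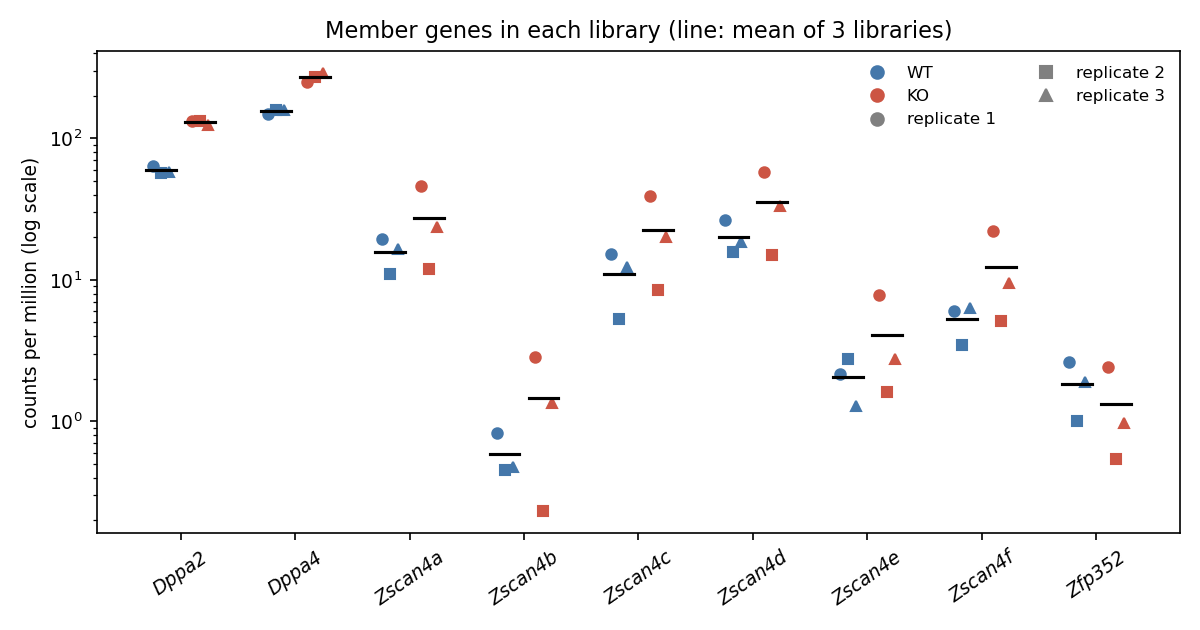
Level of each member in CPM on a log scale, by library, with WT in blue, KO in red, the replicate number as the symbol and the mean of 3 libraries as a line. For Dppa2 and Dppa4 every KO library lies above the WT libraries. In every Zscan4 gene KO replicate 2 (red square) lies among the WT libraries or below them.

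Dppa2 and Dppa4 lie on a chromosome that differed as a whole between the lines, and their differences were read against it. Of 469 other genes tested on chromosome 16, 306 were called higher in KO (65.2%) and 2 lower (edgeR, adjusted p below 0.1), against 11.8% called higher and 12.5% called lower of all 15746 genes tested. These 469 genes had a median of 0.55 on the log2 scale, with quartiles of 0.34 and 0.73, and that of all genes tested was 0.00. Medians in windows of 10 Mb ran from 0.47 to 0.70 along the whole chromosome. The part of the chromosome-wide difference in the levels of Dppa2 and Dppa4 was not tested.

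Dppa2 was 0.58 above the chromosome 16 median on the log2 scale and Dppa4 was 0.26 above it. Of the 470 other genes tested on the chromosome, 33 (7.02%) had a larger log2 fold change than Dppa2, and 94 (20.0%) had a larger one than Dppa4. Among the 207 other genes with an average log2 CPM of at least 5, which have small errors, 9 exceeded Dppa2 and 39 exceeded Dppa4. As folds, the chromosome's median was 1.46-fold, Dppa2 2.19-fold and Dppa4 1.75-fold.

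**Figure D2:**
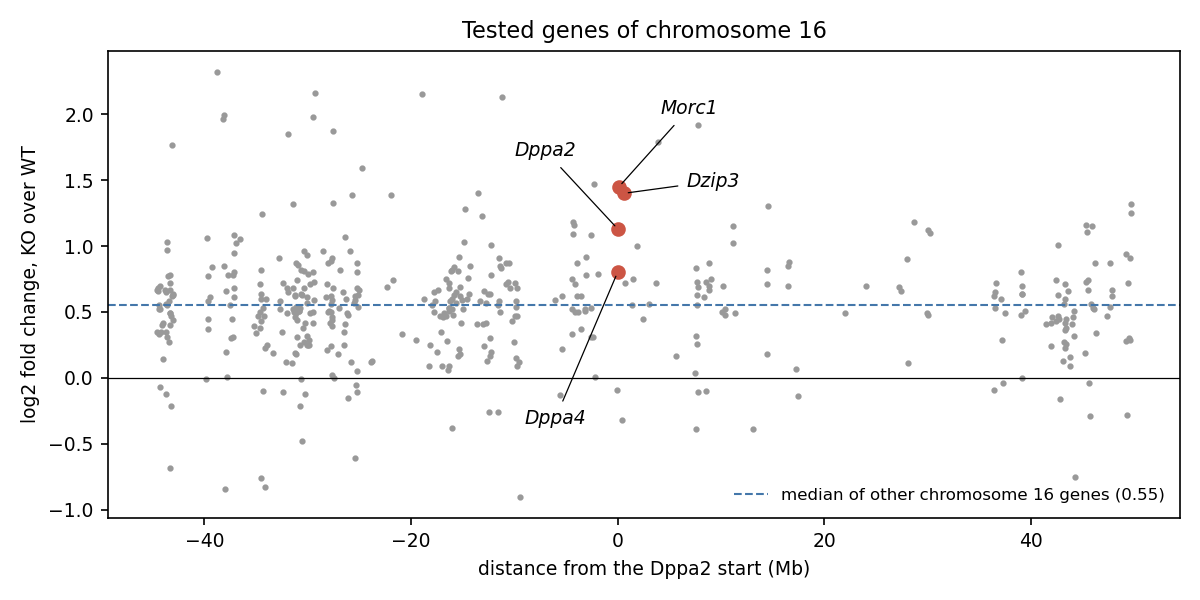
Log2 fold change (KO over WT) of each tested gene of chromosome 16 against its distance from the Dppa2 start in Mb, with named genes in red and the median of the other genes, 0.55, as a dashed line. Most points along the whole chromosome lie above 0, and Dppa2, Morc1 and Dzip3 stand above the dashed line by more than Dppa4 does.

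The genes next to Dppa2 were examined by position. Of 26 genes in the table within 1 Mb, 7 were tested. Of the 5 that are not members, 3 were called higher in KO, against 65.2% of all tested non-members of chromosome 16. Morc1, a germline gene that silences transposons and starts 127 kb from the start of Dppa2, rose between genotypes, with means of 131 ± 9.16 CPM in WT and 358 ± 14.7 CPM in KO and a log2 difference of 1.45 (standard error 0.097, adjusted p = 1.2e-08, edgeR). It was exceeded by 14 of 470 genes of the chromosome, and by 1 of the 207 abundant ones. Dzip3, which encodes a ubiquitin ligase, rose by 1.40 on the log2 scale (standard error 0.14, adjusted p = 1.8e-06, edgeR), and Cip2a, an inhibitor of the phosphatase PP2A, with one of 0.72 (standard error 0.12, adjusted p = 1.9e-04, edgeR). The pseudogenes Gm7204 and Gm8670 were not called, with log2 fold changes of −0.09 and −0.32. Genes with the Dppa name elsewhere in the genome did not pass the test: Dppa3 had a log2 fold change of 0.34 and Dppa5a, a marker of pluripotent cells, one of −0.12. Ooep, a gene of oocytes, had one of −0.24, and Dppa1 had no count in any library. Of this list of 6 genes, 5 were tested and Morc1 alone was called, and the median log2 fold change was 0.34.

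The Zscan4 genes, which encode SCAN-domain zinc finger proteins that mark the two-cell-like state, were higher in KO on average, with KO libraries far apart. Zscan4d had the highest counted level per kilobase of Zscan4a to Zscan4f, 8.91 CPM per kb in WT, and also the fewest shared windows (29.6%). Levels per kilobase were not corrected for shared windows, so the order of the copies is uncertain. Zscan4d was at 26.6, 15.7 and 18.4 CPM in WT and at 57.7, 15.0 and 33.2 CPM in KO, a log2 fold change of 0.79 with a standard error of 0.30. Zscan4c was at 15.2, 5.29 and 12.3 CPM in WT and at 39.1, 8.49 and 20.0 CPM in KO, a log2 fold change of 1.02 with a standard error of 0.37. In both genes KO replicates 1 and 3 exceeded every WT library, and KO replicate 2 did not.

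Zscan4f had 6.05, 3.47 and 6.29 CPM in WT and 22.2, 5.09 and 9.55 CPM in KO, a log2 fold change of 1.20 with a standard error of 0.36. Zscan4a, a transcribed pseudogene in the annotation, had 19.6, 11.0 and 16.5 CPM in WT and 45.9, 12.0 and 23.7 CPM in KO, a log2 fold change of 0.78 with a standard error of 0.30. In both genes KO replicate 1 was the highest library and KO replicate 2 was within the WT range.

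Zscan4e and Zscan4b are 99.7% identical in sequence. They had the lowest counted levels per kilobase of Zscan4a to Zscan4f, with 0.756 and 0.208 CPM per kb in WT, again uncorrected for shared windows. Zscan4e had 2.16, 2.74 and 1.29 CPM in WT and 7.86, 1.62 and 2.78 CPM in KO, a log2 fold change of 1.00 with a standard error of 0.44. Zscan4b had 11, 5 and 7 counts in WT and 35, 3 and 18 counts in KO, a log2 fold change of 1.30 with a standard error of 0.61. It passed the filter on low counts through 2 KO libraries and 1 WT library. Neither gene had a KO replicate 2 value above that of WT replicate 2.

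Zfp352, a zinc finger gene on chromosome 4 that is switched on at the two-cell stage, did not share the direction of the Zscan4 genes. It was at 2.61, 1.00 and 1.89 CPM in WT and at 2.43, 0.54 and 0.978 CPM in KO, with overlapping groups. Its log2 fold change was −0.51 with a standard error of 0.47.

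All 9 members found passed the filter, and 6 of them were called higher in KO and 0 lower, where 11.8% of all genes tested were called higher and 24.3% in either direction. These calls come from the contrast that chose the members and are no test of them. Dppa2 and Dppa4 were called under every fit run, and the other 4, which are Zscan4 genes, were not. DESeq2 called 2 members, Dppa2 and Dppa4, as did edgeR without KO replicate 1. The count was 3 without KO replicate 3, WT replicate 2 or WT replicate 3, 4 with library totals only, and 8 with the replicate block, without a filter or without KO replicate 2. Among the members, only Dppa2 and Dppa4 had groups that did not overlap. The share of all genes tested with such groups was not counted, so this does not set Dppa2 and Dppa4 apart from genes outside the set. Chromosome 7, which holds the Zscan4 cluster, did not differ as a whole, with 115 of 1219 other genes called higher, 133 called lower and a median log2 fold change of −0.01.

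Summed over Zscan4a to Zscan4f, the level was 70.5, 38.7 and 55.3 CPM in WT and 176, 42.4 and 90.6 CPM in KO. Means were 54.8 ± 15.9 and 103 ± 67.5 CPM (SD, n = 3), a log2 ratio of 0.91, and the SD of the KO group exceeded the difference between the means. The log2 ratio was 1.32 in replicate pair 1, 0.13 in pair 2 and 0.71 in pair 3. It was 0.28 without KO replicate 1 and 1.28 without KO replicate 2. The sign was the same in the 3 pairs, and the size depended on the library.

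Whether more Dppa2 goes with more two-cell gene RNA cannot be tested by a correlation here, because the libraries fall into separate groups of 3. Within KO, Dppa2 was at 134 CPM in both replicates 1 and 2, whereas the summed Zscan4 level was 176 CPM in the former and 42.4 CPM in the latter. Within WT, Dppa2 ranged from 56.8 to 63.7 CPM and summed Zscan4 from 38.7 to 70.5 CPM, with replicate 2 lowest in both measures. KO replicate 2 had more Dppa2 than every WT library. Its summed Zscan4 was below that of WT replicates 1 and 3 and slightly above that of its pair, WT replicate 2 (log2 ratio 0.13). Zscan4 RNA was also measurable in every WT library.

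**Figure D3:**
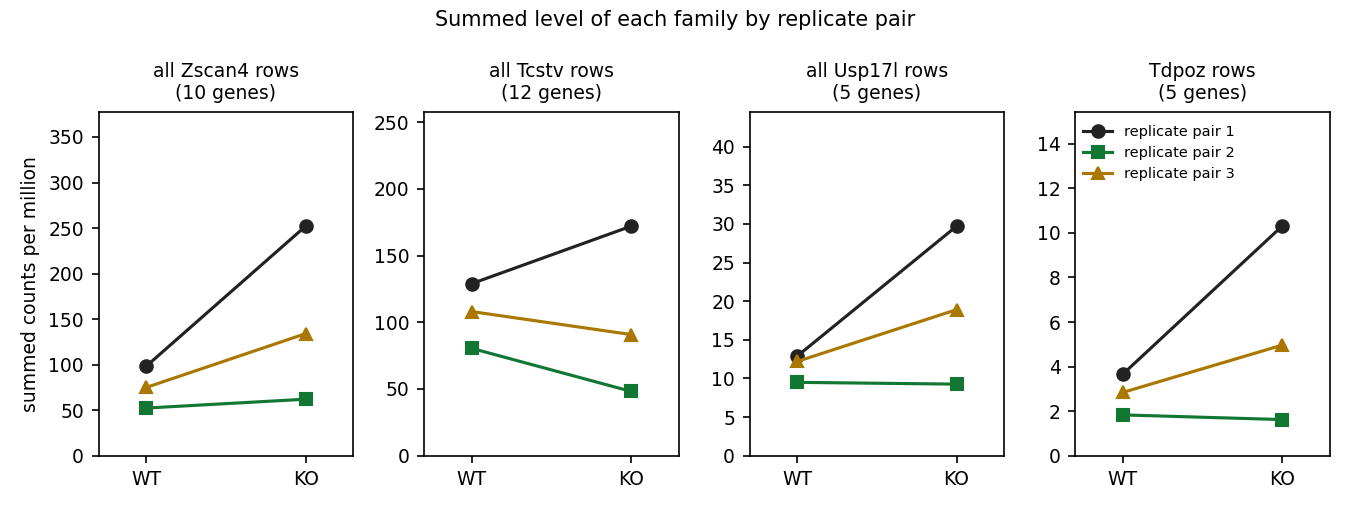
Summed CPM of the Zscan4, Tcstv, Usp17l and Tdpoz genes in WT and KO, with a line joining the libraries of each replicate pair, on axes that start at 0. Pair 2 is the lowest in all 4 families and in both genotypes, and pair 1 the highest in KO.

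The libraries fell in a similar order across gene families that lie on different chromosomes. Replicate 2 was the lowest library of both groups in 6 of the 7 members of chromosomes 4 and 7, and in 21 of 28 two-cell genes tested (75%, these 7 included). Over all genes tested, 15.2% had that order. KO replicate 1 was the highest KO library in 27 of the 28 genes (96.4%), against 33.5% of all genes tested. Many of the 28 genes are paralogs that share sequence, so they are not independent. The same replicate number marked paired cultures, and over 13701 genes the same-numbered WT and KO libraries deviated together, with correlations across genes of 0.232, 0.291 and 0.119.

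The rest of the two-cell programme was taken from a list of 44 genes, of which 31 were found and 21 tested. Of these, 4 were called higher in KO, 1 was called lower and 16 did not pass. The share called, 23.8%, was near the 24.3% of all genes tested. The median log2 fold change was 0.48 against 0.00 over all genes tested. Zscan4-ps1 and Zscan4-ps3, among those called higher, were known to be higher from earlier results of these data. The counts and the median therefore describe the list and do not test it. With the replicate number as a block, which uses the pairing, 9 were called (42.9%), 7 higher and 2 lower, where 30.3% of all genes tested were called. Without KO replicate 2 the count was 8, all higher, without WT replicate 3 it was 3, and DESeq2 also called 3.

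Zscan4-ps1 and Zscan4-ps3 belong to the Zscan4 cluster, and both were already known to be higher in KO from earlier results of these data. Their calls and adjusted p-values are therefore a description and no test. Zscan4-ps1 was at 5.37, 3.74 and 4.06 CPM in WT and 21.9, 4.86 and 14.1 CPM in KO, which is 1.62 on the log2 scale (standard error 0.35, adjusted p = 0.0027, edgeR). Only 23.4% of its windows occur in other genes, so it is among the better resolved copies. Zscan4-ps1 was called higher under every fit run, with log2 fold changes from 1.11 to 2.03 when 1 library was left out. Zscan4-ps3 differed by 1.26 on the log2 scale (standard error 0.36, adjusted p = 0.017, edgeR), which was no longer called without KO replicate 1 (0.66, adjusted p = 0.20, edgeR) nor by DESeq2.

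Tdpoz3, which encodes a TRAF and BTB/POZ domain protein, rose from 1.72, 1.19 and 1.56 CPM in WT to 7.13, 1.08 and 3.31 CPM in KO (log2 fold change 1.35, standard error 0.46, adjusted p = 0.049, edgeR). The call was lost without KO replicate 1 (0.55, adjusted p = 0.51), WT replicate 2 (1.22, adjusted p = 0.12) or WT replicate 3 (1.37, adjusted p = 0.11, all edgeR). Sp110, a nuclear body gene, differed from the others in that its groups did not overlap, with 0.672, 0.913 and 0.541 CPM in WT and 2.03, 1.70 and 1.28 CPM in KO (log2 fold change 1.24, standard error 0.42, adjusted p = 0.043, edgeR). Its call was lost by DESeq2 (adjusted p = 0.13) and, in edgeR, without KO replicate 1 (adjusted p = 0.17), KO replicate 2 (adjusted p = 0.11) or WT replicate 3 (adjusted p = 0.15), with log2 fold changes from 1.07 to 1.25.

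Tcstv genes, a family of two-cell genes on chromosome 13, did not follow Zscan4. Tcstv3 fell, from 10.5, 3.47 and 5.34 CPM in WT to 5.19, 1.47 and 2.86 CPM in KO, lower in every pair (log2 fold change −1.04, standard error 0.38, adjusted p = 0.066, edgeR), and the call was lost without KO replicate 2 (−0.70, adjusted p = 0.23), KO replicate 3 (−0.97, adjusted p = 0.18) or WT replicate 1 (−0.50, adjusted p = 0.43, all edgeR). Tcstv2b, Tcstv2c and Tcstv1b, the genes of the list with the most counts among those not called, had log2 fold changes of 0.10, 0.23 and −0.64, and Tcstv1b was called lower with the replicate block (adjusted p = 0.0048, edgeR). Summed over 12 Tcstv genes, the level was 129, 80.4 and 108 CPM in WT and 172, 48.2 and 90.8 CPM in KO, a log2 ratio of −0.03 that changed sign with the library left out (from −0.61 to 0.31).

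Usp17l genes, deubiquitinases on chromosome 7, summed to 12.9, 9.49 and 12.2 CPM in WT and 29.7, 9.26 and 18.9 CPM in KO. In the unpaired fit 0 of them were called. Usp17lb, Usp17lc and Usp17le were called higher both with the replicate block and without KO replicate 2, Usp17lb also without a filter, and Usp17le where 10 counts were required in every library. The 4 Duxf genes, copies of Dux, together had 3, 4 and 3 counts in WT and 6, 4 and 4 counts in KO, which is too little for a comparison at this depth.

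**Figure D4:**
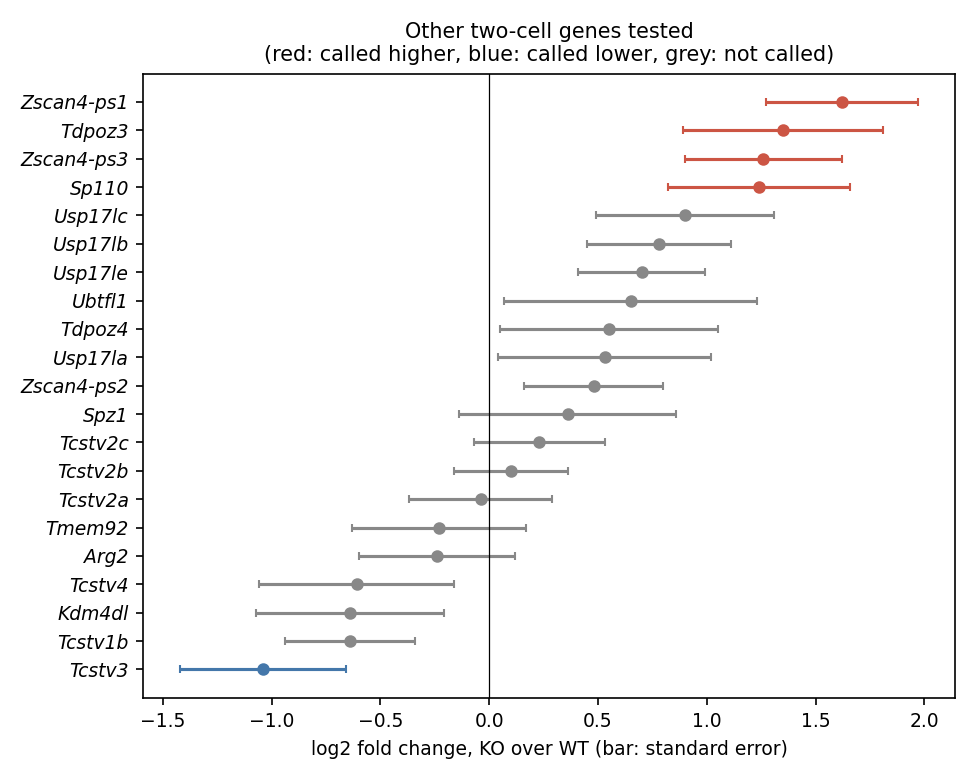
Log2 fold change (KO over WT) with its standard error for the 21 other two-cell genes tested, in order of size. The 4 genes called higher (red) are at 1.24 or more and the gene called lower (blue) is at −1.04, with 16 genes not called (grey) between them.

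Regulators of the two-cell-like state were described in the same way. Of 9 genes known to promote it, 6 were tested and 1 was called: Nr5a2, an orphan nuclear receptor active at zygotic genome activation and in naive cells, rose from 1.64, 2.10 and 2.03 CPM to 8.67, 9.10 and 10.2 CPM (log2 fold change 2.27, standard error 0.23, adjusted p = 1.9e-06, edgeR). Its 3 KO libraries were close together, unlike those of Zscan4. Smarca5 (log2 fold change 0.02), Nelfa (−0.05) and Dppa3 (0.34) were not called, and the median of the list was 0.04. The share of the list called was 16.7%, against 24.3% of all genes tested.

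Of 27 genes known to hold the state back, all were tested, 6 were called higher and 2 lower, and the median log2 fold change was 0.04. The share called, 29.6%, was near the 24.3% of all genes tested. With the replicate block 12 were called (44.4%), 8 higher and 4 lower, against 30.3% of all genes. Both with the largest differences are genes of chromosome 16: Usp7, a deubiquitinase, with 0.77 (adjusted p = 9.6e-06, edgeR) and Chaf1b, a subunit of the histone chaperone CAF-1, with 0.67 (adjusted p = 5.8e-05, edgeR), against the chromosome's median of 0.55. Rif1, a telomere and replication timing factor, rose by 0.44 (adjusted p = 0.013), L3mbtl2 by 0.39 (adjusted p = 0.0059), Max by 0.33 (adjusted p = 0.065) and the maintenance methyltransferase gene Dnmt1 by 0.23 (adjusted p = 0.095, all edgeR). Rybp and E2f6, which with L3mbtl2 and Max encode parts of a variant Polycomb complex, fell by 0.44 (adjusted p = 0.0030) and 0.40 (adjusted p = 0.012, both edgeR). Pcgf6 (−0.11) and Mga (0.16), which encode other parts of it, were not called. The call of Dnmt1 was lost without any 1 of the 6 libraries (log2 fold changes from 0.20 to 0.28, adjusted p from 0.10 to 0.25, edgeR), and that of Max without KO replicate 1 (0.24, adjusted p = 0.29), WT replicate 2 (0.29, adjusted p = 0.20) or WT replicate 3 (0.29, adjusted p = 0.16, all edgeR). Trim28, Uba2 and Uhrf1, with the most counts of those not called, had log2 fold changes of 0.20, 0.21 and 0.07, and with the replicate block Trim28 and Uba2 were called higher (adjusted p = 0.061 and 0.034, edgeR) and Chaf1a and Lin28a lower.

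Developmental and germline genes whose promoters are known to depend on DPPA2 and DPPA4 were examined last among the lists. Of 4 genes, 3 were tested, 2 were called lower (66.7%) and 0 higher, where 12.5% of all genes tested were called lower. Syce1, of the synaptonemal complex, was at 17.6, 18.0 and 16.4 CPM in WT and 13, 8.87 and 10.2 CPM in KO (log2 fold change −0.70, standard error 0.17, adjusted p = 0.0052, edgeR). Mov10l1, a helicase of the piRNA pathway, was at 11.3, 11.8 and 12.4 CPM in WT and 8.59, 6.48 and 6.24 CPM in KO (log2 fold change −0.74, standard error 0.18, adjusted p = 0.0069, edgeR). In both genes the groups did not overlap, and both calls held under every alternative run. Mael, of the same pathway, had a log2 fold change of −0.02, and Nkx2-5 had too few counts.

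Patterns most like those of the members were ranked by Pearson's r of log2 CPM over the 6 libraries, as a description only. Kpna1, Tdh, D1Pas1, Vim and Cldn5 were closest to Dppa2 among 13227 genes, with r from 0.996 to 1.00. These points share the genotype groups, and Kpna1 and Cldn5 also lie on chromosome 16. Atosa, Map3k20, Usp17lb, Zfp869 and Pramel18 were closest to summed Zscan4 among 13223 genes, with r from 0.984 to 0.990. Map3k20 was at 51.0 CPM in WT and 55 CPM in KO on average and Atosa at 7.02 and 8.02 CPM, so these followed the order of the libraries with little difference between the group means. Usp17lb and Pramel18 belong to families expressed at the two-cell stage.

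Markers of other cell types had lower summed levels than the formative markers. Summed over 8 markers of primitive endoderm, levels ran from 20.9 to 31.9 CPM in WT and from 24.9 to 55.6 CPM in KO. Of the 5 tested, 2 (Gata6 and Pdgfra) were called higher and 0 lower. All 5 had a positive log2 fold change, against 50.2% of all genes tested. The 8 trophoblast markers summed to between 15.6 and 18.3 CPM in WT and between 15.1 and 19.3 CPM in KO, with 1 of 3 tested called in each direction. The 8 fibroblast markers summed to between 11.4 and 20.2 CPM in WT and between 7.45 and 12.6 CPM in KO, with 1 of 3 tested called lower. Median log2 fold changes of the tested markers were 0.83 for primitive endoderm, −0.1 for trophoblast and −0.78 for fibroblast. Of all genes tested, 11.8% were called higher and 12.5% lower. The part of other cell types in the members' levels was not tested.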

How the data were processed

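Total RNA libraries (TruSeq stranded, ribosomal RNA removed) of 3 WT and 3 Oct6 KO EpiLC cultures were sequenced by the authors. The authors checked reads with FastQC, trimmed them with Fastp and aligned the rest to GRCm39 with the two-pass mode of STAR. According to the paper, the same step also produced the gene abundances. The deposited values are raw counts per Ensembl gene, with no normalization. Neither the version of STAR nor the release of the annotation, the strand setting or the handling of reads that match several genes is given in the sources used here.

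Of 55416 genes, 54749 were matched by Ensembl ID to GENCODE M39 and 30691 had a count. Counts were tested in R 4.3.3 with edgeR 4.0.16 (TMM factors from 0.974 to 1.02, filterByExpr with a minimum count of 10, quasi-likelihood test, genotype as the only term), which left 15746 genes. Calls were made at a Benjamini-Hochberg adjusted p below 0.1, the threshold of the study, which used DESeq2. CPM are counts relative to the TMM-scaled library size. The biological coefficient of variation was 11.7%. The code was tested on simulated data.

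The design text pairs the replicates, and same-numbered libraries deviated together (each r over 0.1), so a fit with the replicate block was an alternative. The others were DESeq2 1.42.0, other scalings and filters, a threshold of 0.05, and fits that each omitted 1 library. Libraries of a group were not copies (chi-square per degree of freedom from 6.94 to 11.8).

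Named genes were the members, in each list those called and the 3 with the most counts not called, tested genes within 1 Mb of Dppa2 or Dppa4, and the 5 genes most like Dppa2 and summed Zscan4. Members and lists were chosen with earlier results of these data known. Among the lists, 13 symbols of the two-cell list had no match and were not used. Repeat elements were not analysed here. Figures were drawn with matplotlib 3.10.9.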

Additional observations from a re-analysis of the deposited data

How the results depend on the processing

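The differences of Dppa2 and Dppa4 kept their direction under every alternative run, with log2 fold changes from 1.09 to 1.18 and from 0.75 to 0.86 when 1 library was left out, and they stayed 0.54 to 0.62 and 0.19 to 0.30 above the chromosome 16 median. That median was 0.52 with library totals only, 0.58 without a filter and 0.55 to 0.57 when 1 library was left out. Zscan4 genes also stayed positive, but their size depended on the libraries, most on KO replicates 1 and 2. Without KO replicate 1 the log2 fold changes of Zscan4a to Zscan4f ran from 0.11 to 0.46, and without KO replicate 2 from 1.14 to 1.81. WT libraries mattered as well: the summed log2 ratio was 0.71 without WT replicate 2 and 1.13 without WT replicate 1. Over all libraries left out, the summed level of Zscan4a to Zscan4f ran from 0.28 to 1.28, that of 10 Zscan4 genes from 0.38 to 1.36 and that of 12 Tcstv genes from −0.61 to 0.31. Zfp352 ran from −1.28 to −0.14.

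The count of other two-cell genes called was 5, and it was 3 by DESeq2, 9 with the replicate block and 3 to 8 when 1 library was left out. In the list of other Dppa genes and Morc1, 1 to 2 genes were called: Morc1 and, without KO replicate 1, Khdc3. Genes past an absolute log2 fold change of 1 were 978, and 584 where 10 counts were required in every library. Genes not called that changed sign were Tcstv2b (−0.02 with the replicate block) and Smarca5 (−0.002 with library totals only), and with 1 library left out Gm7204 (−0.21 to 0.05), Gm8670 (−0.63 to 0.20), Mael (−0.10 to 0.06), Nelfa (−0.13 to 0.005), Smarca5 (−0.07 to 0.13), Tcstv2b (−0.47 to 0.43) and Tcstv2c (−0.36 to 0.58). The replicate block moved the other two-cell genes called from 5 to 9, and the genes called lower among those that hold the state back from 2 to 4. It changed no other total count of a list or chromosome by more than 1.5 times. The cause of these changes was not tested. With 3 libraries per group and 3 to 35 counts, Zscan4b is at the limit of this depth.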
